A study of Oryctolagus cuniculus with 4 samples.

Results

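The genes described here encode mitochondrial ribosomal proteins, and they were taken as the 50 genes of 20294 whose symbol starts with MRPL or MRPS followed by a digit. By symbol, 31 belong to the large subunit (MRPL) and 19 to the small subunit (MRPS). The RNA came from intact semitendinosus tendons, a hamstring tendon that serves as graft material when knee ligaments are rebuilt. The 4 animals were New Zealand White rabbits, female and 193 days of age. The series title calls the tissue allografts and its design text autografts, while the sample descriptions call it intact. Each sample is 1 tendon, its surface was cleared of muscle with a blade, and polyadenylated RNA of the whole frozen tissue was sequenced. They form 1 group with no treatment and no control.

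Mitochondria keep a small genome of their own, and the proteins it encodes, all core subunits of the respiratory chain and ATP synthase, are made by ribosomes inside the organelle. The RNA of these ribosomes is copied from the mitochondrial genome, whereas their proteins are encoded in the nucleus, made in the cytoplasm and imported. The small subunit reads the mRNA, and the large subunit joins amino acids and passes the new chain to the inner membrane. Many of these proteins have a counterpart in bacterial ribosomes, and many others are found in mitochondria alone. Tendon fibroblasts are sparse and work in tissue with few vessels, while skeletal muscle is rich in mitochondria.

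A list of 78 mitochondrial ribosomal protein symbols, 49 MRPL and 29 MRPS, was compared with the table, and 50 had an entry. The remaining 28, among them MRPL12 of the stalk and MRPS18C, were not analysed here, and 7069 genes of the table carry no symbol. The symbol is not always the position in the ribosome. MRPS30 (mL65) and MRPS18A (mL66) are placed in the large subunit in structures of the mammalian ribosome, and MRPS36 (KGD4) is known as a part of the alpha-ketoglutarate dehydrogenase complex. The subunits are compared by symbol, and by structure where that matters. Per tendon, the estimated counts summed to between 19759696 and 30646052. The tissue was checked with 7 of 10 listed tendon markers (THBS4, FMOD, COL1A1, COL1A2, MKX, DCN and TNMD), which together took 6.56, 4.94, 3.23 and 2.89% of abundance in tendons 1 to 4. All 7 had a mean of at least 10 TPM. For 13 of 15 listed skeletal muscle markers the share was 0.858, 3.37, 1.71 and 2.31%. In whole tissue, fewer cells of a type and less RNA per cell cannot be told apart. The design text names 4 rabbits for the 4 tendons, and p-values measure only the spread between these tendons.

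All 50 genes were detected in every tendon, at moderate levels. Levels are given in TPM, a unit that corrects each transcript for its annotated length and scales each tendon to the same total. Together the genes took 0.173, 0.199, 0.188 and 0.199% of all TPM, tendon 1 first, which averages 0.1898 ± 0.0123% (SD, n = 4). The lowest share was in tendon 1 and the others lay close together. Mean levels ran from 7.96 TPM for MRPS27 to 99.1 TPM for MRPL27, with a median of 35.5 TPM, against 19.5 TPM over the 12786 genes that averaged 1 TPM or more. A mean of at least 10 TPM was reached by 48 of the 50, all but MRPL13 and MRPS27, and by 43% of all 20294 genes.

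**Figure D1:**
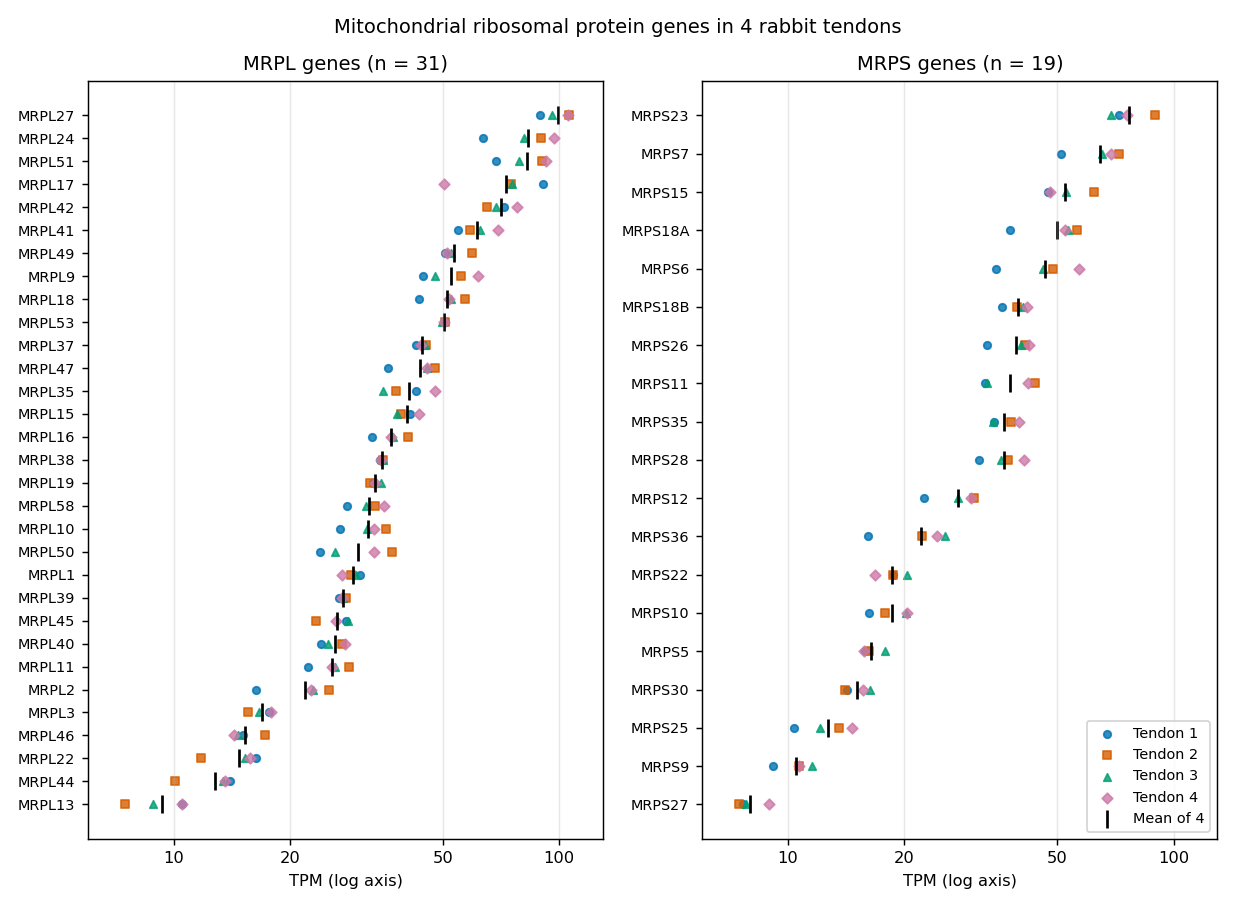
TPM (log axis) of each MRPL gene (left, n = 31) and MRPS gene (right, n = 19), ordered by mean; points are the 4 tendons and bars their mean. MRPL27 was highest, between 89.3 and 106 TPM, and MRPS27 lowest, between 7.47 and 8.91 TPM.

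By the median gene, the large and the small subunit did not differ beyond the spread between tendons. The median TPM over MRPL genes was 32.9, 36.8, 34.9 and 35.1 in tendons 1 to 4, and that over MRPS genes was 31.4, 37.1, 32.9 and 39.7. The ratio of the medians, large over small, was 1.05, 0.992, 1.06 and 0.884, above 1 in 2 tendons and below 1 in 2. Its mean log2 value was -0.01 ± 0.12 (SD, n = 4; exact two-sided sign-flip permutation test, p = 0.875, adjusted p = 0.875 over 6 ratios).

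The averages gave the large subunit the higher level in all 4 tendons. Mean TPM per gene was 38.4, 42.4, 40.4 and 42.6 for MRPL and 28.4, 35.8, 33.1 and 34.98 for MRPS genes in tendons 1 to 4. On the scale of log2(TPM + 1), the mean over MRPL genes exceeded that over MRPS genes by 0.33 ± 0.08 (SD, n = 4), which was higher in 4 of 4 tendons (exact permutation test, p = 0.125, adjusted p = 0.188). With 4 tendons this test cannot go below 0.125, so no ratio could reach 0.05. The gap was smaller without long gene models. Among members with an annotated length under 2000 bases, an alternative chosen after seeing the data, it was 0.05, and in CPM, which does not correct for length, it was 0.11. With MRPS30 and MRPS18A counted as large and MRPS36 left out, it was 0.29.

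Summed over genes, the large subunit took 0.127 ± 0.00614% of TPM and the small subunit 0.0628 ± 0.00624% (SD, n = 4). The ratio of the sums was 2.204, 1.94, 1.99 and 1.99 in tendons 1 to 4, with 31 genes against 19, or 1.02 ± 0.08 on the log2 scale (mean and SD, n = 4; exact permutation test, p = 0.125, adjusted p = 0.188). By structure, with 33 genes against 16, the mean log2 ratio of the sums was 1.31. The sums count only symbols with an entry, so their ratio is not that of the complete subunits.

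**Figure D2:**
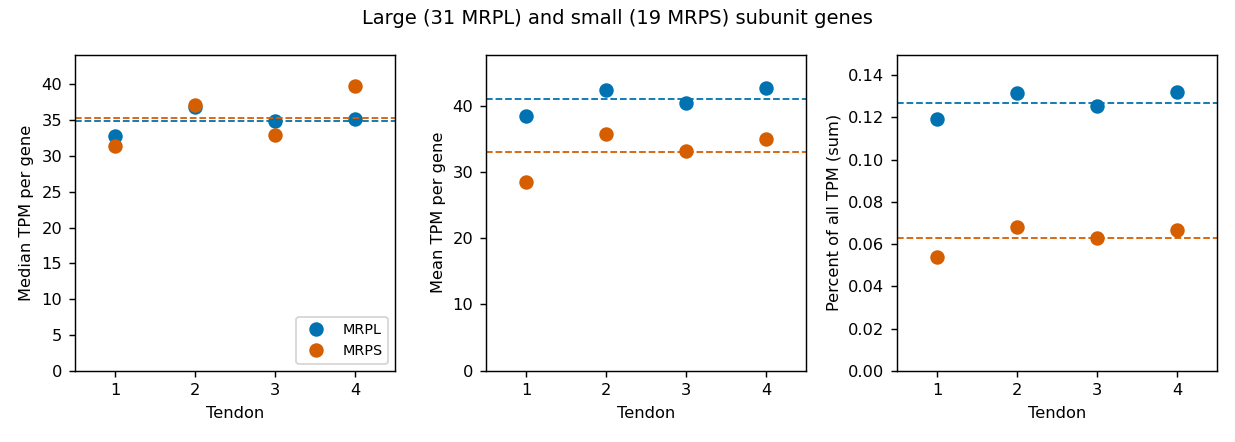
Median TPM per gene (left), mean TPM per gene (middle) and share of all TPM (right, percent) of the MRPL and MRPS genes in each tendon (points), with the mean of 4 tendons as a dashed line. The medians overlap, at 34.9 and 35.3 TPM on average, while the means are 40.97 and 33.1 TPM.

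By class of origin, the difference in median was smaller than the spread between tendons in TPM, but not with another length correction. The classes follow unified protein names, such as mL66 for MRPS18A and mS40 for MRPS18B, and ancestry itself was not tested. The 26 proteins classed as conserved with bacteria had a median of 32.6, 37.5, 34.8 and 38.8 TPM in tendons 1 to 4. The 23 classed as mitochondria-specific, among them MRPS18A and MRPS18B, had 32.8, 36.8, 33.96 and 35.1 TPM. On the log2 scale the ratio averaged 0.05 ± 0.07 (SD, n = 4; exact permutation test, p = 0.25, adjusted p = 0.3), positive in 3 of 4 tendons. It was 0.09 ± 0.03 with effective lengths, which are 150 bases shorter, and 0.35 ± 0.08 in CPM, which has no length correction (SD, n = 4; exact permutation test, p = 0.125 for both, the smallest it can give).

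Among large subunit proteins, the highest mRNA was MRPL27, whose bacterial counterpart reaches the site where peptide bonds form (ENSOCUG00000004601.1, OryCun2.0 chromosome 19, 37341613 to 37350162). It stood at 89.3, 106, 95.9 and 105 TPM in tendons 1 to 4, with a mean of 99.1 ± 8.01 TPM (SD, n = 4). MRPL24, a protein near the opening of the exit tunnel, followed with 63.6, 89.9, 81.1 and 96.8 TPM (ENSOCUG00000001466.2, OryCun2.0 chromosome 13, 36214743 to 36216016). It was lowest in tendon 1, and so was MRPL51, a protein of mitochondria alone, with 68.6, 90.5, 78.6 and 92.6 TPM (ENSOCUG00000008170.2, OryCun2.0 chromosome 8, 32548755 to 32549915). MRPL42, also without a bacterial counterpart, had 71.9, 65.1, 68.5 and 77.7 TPM and kept within a narrow band. MRPL41, the next, had a mean of 61.3 ± 6.16 TPM. MRPL15, a core protein shared with bacteria, and MRPL19, which sits at the contact between subunits, had means of 40.3 ± 2.38 and 33.2 ± 0.988 TPM. MRPL2 and MRPL3, whose bacterial counterparts lie around the catalytic centre, stood lower at 21.9 ± 3.83 and 16.99 ± 1.06 TPM.

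Proteins of the same part of the large subunit did not share a level. Of the stalk, the arm that receives translation factors, 3 genes were measured. MRPL10, the stalk base that carries MRPL12, had 27.01, 35.5, 31.7 and 33.1 TPM in tendons 1 to 4, and MRPL11, which lies beside it, had 22.3, 28.5, 26.2 and 25.8 TPM. MRPL53, a mitochondrial addition at the stalk, had 50.4, 50.5, 49.8 and 50.1 TPM, which was above both of them in every tendon and nearly constant. Of the central protuberance, the knob that faces the small subunit, MRPL18 was highest at 51.2 ± 5.73 TPM. MRPL38 and MRPL40 had 34.7 ± 0.304 and 26.2 ± 1.74 TPM, and MRPL46 and MRPS30 were lowest at 15.4 ± 1.32 and 15.1 ± 1.08 TPM. The 5 levels thus spanned more than a factor of 3, from 15.1 to 51.2 TPM.

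Around the exit tunnel, too, levels differed, with MRPL24 high and MRPL22 and MRPL44 low. MRPL45, which ties the ribosome to the inner membrane, had 27.96, 23.4, 28.3 and 26.4 TPM in tendons 1 to 4 (ENSOCUG00000015690.2, OryCun2.0 chromosome 19, 39822850 to 39848774), and MRPL22, which lines the tunnel, had 16.3, 11.8, 15.3 and 15.8 TPM. MRPL22 was lowest in tendon 2, as were MRPL44, with 13.98, 10.1, 13.4 and 13.6 TPM, and MRPL13, the lowest of the large subunit, with 10.5, 7.47, 8.84 and 10.5 TPM. MRPL58, a peptidyl-tRNA hydrolase that frees stalled ribosomes and is also built into the large subunit, had 28.2, 33.4, 31.5 and 35.1 TPM. It came from 2 transcripts, of which the shorter, with 594 bases, took 59.1% of the gene's TPM on average. MRPL47, another protein near the tunnel, had 36.1, 47.6, 45.4 and 45.4 TPM. It also had 2 transcripts, and that of 763 bases took between 82.3% (tendon 1) and 94.3% (tendon 2).

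In the small subunit, MRPS23, a protein without a bacterial counterpart, was highest, with 72.02, 89.8, 68.7 and 75.5 TPM in tendons 1 to 4 and a mean of 76.5 ± 9.29 TPM (SD, n = 4; ENSOCUG00000003350.2, OryCun2.0 chromosome 19, 30340768 to 30346946). Its highest value was in tendon 2 and the other 3 tendons lay between 68.7 and 75.5 TPM. MRPS7, a protein of the subunit's head, had 51.1, 72.1, 65.3 and 68.7 TPM (ENSOCUG00000017928.2, OryCun2.0 scaffold GL018845, 467940 to 470259), and MRPS15, which binds early to the subunit's RNA in bacteria, had 47.3, 62.1, 52.6 and 47.7 TPM. MRPS6, another core protein, had 34.7, 48.7, 45.8 and 56.8 TPM, with tendon 1 lowest and tendon 4 highest. MRPS12, the protein of the decoding centre and in bacteria the site of streptomycin resistance, had 22.5, 30.4, 27.7 and 29.9 TPM from 2 transcripts of 390 and 414 bases. MRPS5, which also bears on reading accuracy, had 16.4 ± 0.968 TPM.

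The lowest small subunit genes were MRPS27, an RNA-binding pentatricopeptide repeat protein, with 7.67, 7.47, 7.81 and 8.91 TPM in tendons 1 to 4, MRPS9 with 10.5 ± 1.004 TPM and MRPS25 with 12.7 ± 1.84 TPM (mean and SD, n = 4). All of them have annotated transcripts of 3002 bases or more. Of the MRPS18 family, a set of related proteins that sit at different places in the ribosome, MRPS18A had 37.6, 56.3, 53.4 and 52.3 TPM and MRPS18B, which is part of the small subunit, 35.9, 39.2, 40.8 and 41.7 TPM. MRPS18A exceeded MRPS18B in all 4 tendons, by least in tendon 1. MRPS36, the dehydrogenase protein, had 16.1, 22.3, 25.6 and 24.3 TPM and was lowest in tendon 1 as well.

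The level of a gene went with its annotated length. The 25 members with fewer than 1000 bases had a median of 40.8 TPM, the 13 with at least 1000 but under 2000 bases had 34.7 TPM, and the 12 with 2000 bases or more had 14.9 TPM. As a description across 50 genes that share the same libraries, Spearman's rho between length and mean TPM was -0.65, against -0.16 over 12786 genes. In CPM the sign turned, with 0.55 over the same 50 genes. Length divides each TPM, so length and TPM are not independent measures. Lengths were multiples of 3, as those of a coding sequence alone are, for 26 of the 50 members, against 63.4% of all 20294 genes.

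The long models were spread unequally over the subunits, 6 of 31 MRPL and 6 of 19 MRPS genes. Within the class under 1000 bases, MRPL genes had a median of 45.5 TPM (n = 16) and MRPS genes 39.4 TPM (n = 9). At 2000 bases or more the medians were 15.9 and 13.9 TPM. How complete each gene model is was not tested. An error in an annotated length would change a gene's TPM alike in all 4 tendons, and the SD would not show it. Fractional estimated counts mark reads that fit more than 1 transcript. Counts were whole in all 4 tendons, within 1e-06, for 32 of the 50 genes, and for 30 of the 47 whose mean reached 10 CPM (reads scaled to a common library total), against 63.3% of 8780 such genes. Among the 18 others were MRPL17, MRPL3, MRPL13, MRPL44, MRPS10 and MRPS27, all with 4421 bases or more.

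**Figure D3:**
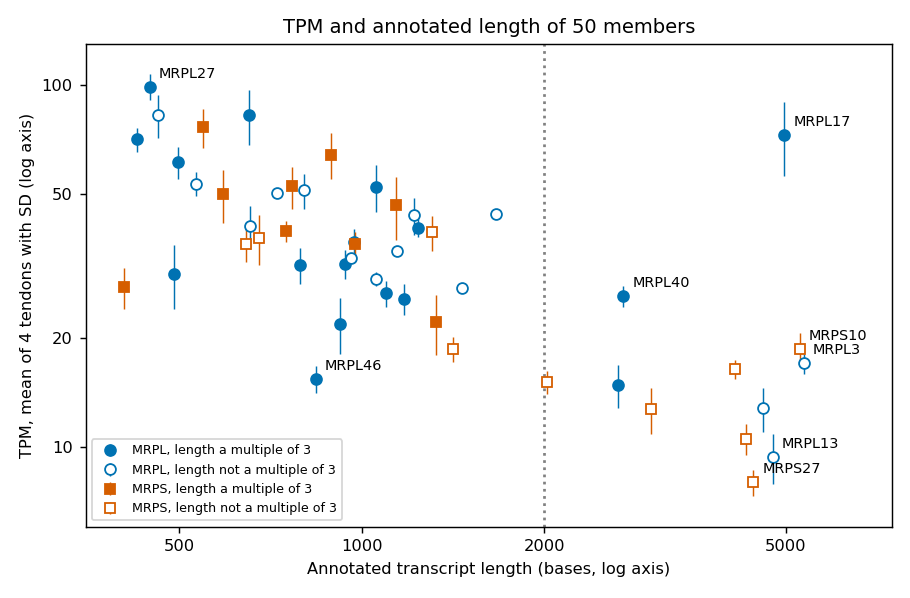
Mean TPM of 4 tendons with SD (log axis) against annotated transcript length in bases (log axis; weighted by TPM for genes with 2 transcripts) of the 50 members, by subunit and by whether the length is a multiple of 3. Right of the dotted line at 2000 bases lie 12 genes, 10 of them below 20 TPM; MRPL17, at 72.9 TPM, stands apart from them.

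MRPL17, the mitochondrial form of a bacterial protein at the exit tunnel, had another pattern than most members (ENSOCUG00000005726.3, OryCun2.0 chromosome 1, 147690611 to 147696141). Its estimated counts were 4512, 6391, 5736 and 4205 in tendons 1 to 4, and its mean of 197 CPM compared with 53.9 CPM for MRPS10, the next member. Corrected for an annotated length of 4974 bases, it had 90.8, 75.2, 75.3 and 50.3 TPM, averaging 72.9 ± 16.7 TPM (SD, n = 4). It was highest in tendon 1 and lowest in tendon 4. On the scale of TMM-normalised CPM, which corrects for composition but not for length, it was 1 of 3 members highest in tendon 1, with MRPL22 and MRPL44, against 34.1% of 8780 genes. Its values there were 236, 222, 203 and 132, a 1.79-fold range and the largest of the 47 members whose mean reached 10 CPM. No other gene of the table overlapped it. Whether its long model joins a second transcript was not tested, and its level and its pattern between tendons rest on that model.

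Between tendons no member varied 2-fold. The highest tendon was at least 2 times the lowest, in TMM-normalised CPM, for 0 of these 47 members, against 10.2% of 8780 genes. The count was also 0 in TPM, in CPM and with DESeq2 size factors; these are ranges, and no test was run on them. The median range was 1.33-fold over members and 1.33-fold over all those genes. It was 1.27-fold for the 29 MRPL and 1.39-fold for the 18 MRPS genes. Without tendon 1 the ranges were 1.21- and 1.19-fold, in the opposite order. The median biological coefficient of variation (edgeR, intercept alone), which leaves out counting noise, was 0.175 for the 50 members and 0.205 over 12740 genes. Those genes had reached 1 CPM in 2 or more tendons and were not matched to members in level.

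Of these 47 members, MRPL3, a core protein, had the smallest range, with 49.7, 49.8, 48.4 and 50.6 TMM-normalised CPM in tendons 1 to 4, a 1.04-fold span. MRPL42, MRPL45, MRPL19 and MRPL15 followed, with ranges of 1.102- to 1.13-fold. After MRPL17, the largest ranges among the 47 members were those of MRPL2, MRPS18A, MRPS6 and MRPS36. For MRPL2 the values were 7.91, 13.9, 11.5 and 11.04 TMM-normalised CPM, and for MRPS18A 11.6, 19.8, 17.1 and 16.3. MRPS6 had 20.6, 32.9, 28.2 and 34.05 and MRPS36 11.2, 17.6, 18.4 and 16.96. All 4 were lowest in tendon 1, below each of the other 3 tendons.

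Tendon 1 was the low tendon of the group as a whole, a pattern noticed in the data. In TMM-normalised CPM, 35 of 47 members were lowest in tendon 1, against 30.1% of 8780 genes, and 32 of 47 were highest in tendon 2, against 31.4%. In TPM, 29 of 47 were lowest in tendon 1, against 22.00% of genes. By subunit, 16 of 18 MRPS and 19 of 29 MRPL genes were lowest there. The median deviation of a member from its own mean was -0.17, 0.16, 0.00 and 0.04 on the log2 scale in tendons 1 to 4. The shift was thus a fraction of a doubling, and each tendon is 1 animal. Over all genes whose mean reached 10 CPM, the medians were 0.02, 0.02, 0.00 and -0.03.

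**Figure D4:**
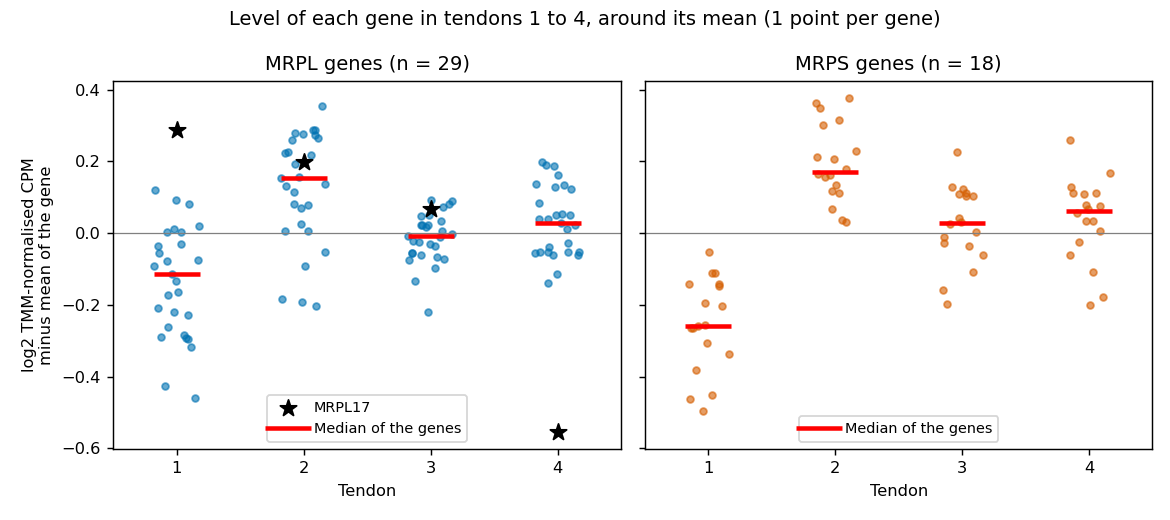
log2 of TMM-normalised CPM in each tendon minus the mean of the gene over 4 tendons, for the 29 MRPL (left) and 18 MRPS genes (right) whose mean reached 10 CPM; 1 point per gene, red bars are medians and stars mark MRPL17. Medians are lowest in tendon 1, at -0.11 and -0.26, and highest in tendon 2, at 0.15 and 0.17.

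Transcript length went with the low values of tendon 1, and markers of tissue make-up also differed between tendons, not all in the same order. Of all genes under 1000 bases whose mean reached 10 CPM, 47.2% were lowest in tendon 1, against 33.7% from 1000 to under 2000 bases and 23.7% at 2000 bases or more. Members followed the same order, with 19 of 22, 9 of 13 and 7 of 12. In the long class, all 6 MRPS but 1 of 6 MRPL genes were lowest in tendon 1. Skeletal muscle markers were also lowest there for 12 of 13 genes, against 30.1% of 8780 genes. Their summed level was 8585, 33657, 17142 and 23112 TPM in tendons 1 to 4. Among them the fast fibre gene TNNC2 had 1.59, 20.4, 4.41 and 926 TPM, and MYH2 had 0.548, 0.922, 1.01 and 240.3 TPM. Both were far higher in tendon 4 than in the other tendons. Tendon markers were highest in tendon 1 for 4 of 7 genes, against 34.1% of 8780 genes, a count too small to set them apart. Their sums were 65590, 49402, 32293 and 28908 TPM. The 5 endothelial markers were all lowest in tendon 1, against 30.1% of 8780 genes, with sums of 150.1, 192, 262 and 263 TPM. Sums were 213, 304, 446 and 716 TPM for 4 of 6 adipocyte markers, and 67.5, 54.8, 133 and 178 TPM for all 6 macrophage markers; none of the markers with an entry was at 0. Tendon 1 also had the fewest counts. The part of each of these in the pattern was not tested.

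A gene pair joined both subunits at a single locus. MRPL46 lies on the plus strand of OryCun2.0 scaffold GL018934, from 193169 to 198183, and MRPS11, a protein of the small subunit's platform, on the minus strand from 189414 to 192807. Their annotated starts are 362 bases apart and face away from each other. MRPS11 had 32.5, 43.7, 32.9 and 41.9 TPM in tendons 1 to 4 and MRPL46 15.1, 17.3, 14.7 and 14.3 TPM, so MRPS11 was higher in every tendon. The log2 ratio of MRPL46 to MRPS11 ran from -1.10 in tendon 1 to -1.55 in tendon 4. Both genes were highest in tendon 2. Divergent starts within 1000 bases were found for 13 of the 50 members, 9 MRPL and 4 MRPS, against 2.87% of all 20294 genes. Of the 47 members whose mean reached 10 CPM it was 11, against 4.13% of 8780. Among these pairs were MRPL18 with the chaperonin gene TCP1, 815 bases apart, and MRPL13 with MTBP, 44 bases apart.

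The annotated spans of 5 members, introns included, overlap that of another gene. MRPL47 overlaps ACTL6A, MRPS27 overlaps the mitochondrial RNA-binding gene PTCD2, and MRPL10 overlaps LRRC46. MRPL2 lies within the span of PEX6 on the same strand, and MRPS7 overlaps an unnamed gene. The use of strand in the counting is not given in the sources used here, so reads of overlapping genes cannot be told apart by strand. Whether exons overlap was not tested, so how far these levels are affected is uncertain. Estimated counts were whole in every tendon for MRPL10 and MRPL2, but not for MRPL47, MRPS27 and MRPS7.

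Translation factors, assembly genes and synthetases of the mitochondrion had lower median TPM than the ribosomal proteins in every tendon. Their annotated transcripts were longer, with median lengths of 1897.5, 1504.5 and 2875 bases, against 1015 bases for members. The lists were not compared without a length correction. Translation factors, which start, extend and end protein chains, had a median of 17.9 ± 2.89 TPM over 12 of 15 listed symbols (SD, n = 4). TUFM, the elongation factor that brings aminoacyl-tRNA, led with 72.5, 101, 98.1 and 95.2 TPM in tendons 1 to 4. It was followed by GFM2 at 31.5 ± 6.54 and the elongation factor GFM1 at 27.3 ± 3.61 TPM. Assembly genes had a median of 18.8 ± 0.936 TPM over 18 of 32 symbols, older names included. They were led by GRSF1, which binds RNA in mitochondrial granules, at 63.8 ± 4.78 TPM, with the helicase gene DHX30 at 36.1 ± 1.85 and MALSU1, a silencing factor of the large subunit, at 35.1 ± 3.57 TPM. The aminoacyl-tRNA synthetases, which charge tRNAs, were lowest with a median of 8.65 ± 0.322 TPM over 15 of 21 symbols. IARS2, HARS2 and YARS2 led them at 27.1 ± 2.403, 17.8 ± 1.69 and 13.6 ± 1.15 TPM. Of the genes in these lists whose mean reached 10 CPM, 0 of 8, 0 of 11 and 0 of 10 had a 2-fold range between tendons. Against 10.2% of all genes, lists of this size are too short to stand apart.

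Of 6 listed ribosomal proteins with other symbols, 3 had an entry, and these were within the same band or above it. AURKAIP1 (mS38) had 116, 137, 148 and 152 TPM in tendons 1 to 4, above every MRPL and MRPS gene in mean. GADD45GIP1 (mL64) had 58.8 ± 10.2 TPM and DAP3 (mS29), a GTP-binding protein of the small subunit, 17.5 ± 1.82 TPM (mean and SD, n = 4). Genes that make and keep mitochondrial mRNA had a median of 13.9 ± 0.821 TPM over 17 of 24 symbols, led by HSD17B10, a subunit of mitochondrial RNase P, at 49.98 ± 11.04, LRPPRC, an mRNA stabiliser, at 40.96 ± 1.54 and FASTK at 38.4 ± 7.05 TPM. Membrane insertion and quality control genes had a median of 41.5 ± 1.61 TPM over 10 of 15, led by the chaperones HSPD1 at 161 ± 9.39 and HSPA9 at 139 ± 5.397 TPM and by the prohibitin PHB2 at 108 ± 9.66 TPM. OXA1L, which inserts new chains into the inner membrane, had 26.7, 34.2, 28.4 and 40.8 TPM.

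Regulators of mitochondrial biogenesis were measured for 7 of 9 symbols. GABPA, an ETS family factor, had 46.8, 39.7, 46.4 and 40.8 TPM in tendons 1 to 4 and NRF1, a nuclear factor for respiratory genes, 17.1, 13.7, 13.2 and 13.9 TPM. MYC had 29.5 ± 2.91 and GABPB1, the partner of GABPA, 22.1 ± 2.53 TPM (mean and SD, n = 4). PPARGC1A, a coactivator that is abundant in oxidative muscle, had 5.09, 4.06, 3.098 and 3.31 TPM. In TMM-normalised CPM, 3 of the 5 regulators whose mean reached 10 CPM were highest in tendon 1, against 34.1% of all genes, a count too small to set the list apart.

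Set beside the cytoplasmic ribosome and the respiratory chain, the mitochondrial ribosome was expressed at the lowest level. The median over 31 cytoplasmic ribosomal protein genes was 925, 908, 1005 and 889 TPM in tendons 1 to 4. The median member stood at 0.0352, 0.0407, 0.0341 and 0.0403 times that level, a mean log2 ratio of -4.74 ± 0.13 (SD, n = 4; exact permutation test, p = 0.125, adjusted p = 0.188), lower in 4 of 4 tendons. The 44 nuclear genes chosen for the respiratory chain had medians of 106, 131, 119.9 and 129 TPM. The median member stood at 0.306, 0.282, 0.286 and 0.279 times that level (mean log2 ratio -1.80 ± 0.06; exact permutation test, p = 0.125, adjusted p = 0.188), also lower in 4 of 4 tendons. The respiratory genes were chosen by symbol and hold assembly factors. With these and NDUFA4L2 left out, the ratio was -2.07. The 13 mitochondrially encoded genes, the mRNAs these ribosomes read, had medians of 5714, 6356, 8094 and 7971 TPM. One of them, ND4L, had 3218, 6.36, 5.55 and 4328 TPM in tendons 1 to 4. Why it was so low in tendons 2 and 3 was not tested, and it is counted with the others.

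The low values of tendon 1 were shared with these groups. In TMM-normalised CPM, 35 of 38 respiratory chain genes and 20 of 29 cytoplasmic ribosomal protein genes whose mean reached 10 CPM were lowest in tendon 1, as were 11 of 13 mitochondrially encoded genes, against 30.1% of all genes. Tendon 2 was highest for 32 of 38 respiratory and 18 of 29 cytoplasmic genes, but for 0 of 13 mitochondrially encoded genes, of which 9 were highest in tendon 3. For members, 4 of 47 were highest in tendon 3, against 15.7% of all genes. The median range was 1.51-fold for respiratory and 1.22-fold for cytoplasmic ribosomal protein genes, with 1.33-fold for members between them. The ratio of members to respiratory genes had an SD of 0.06 on the log2 scale, against 0.07 to 0.13 for the other 5 ratios. That order depended on the gene sets and the unit. Without assembly factors and NDUFA4L2 this SD was 0.17, and without cytoplasmic paralogs the SD of the ratio to cytoplasmic genes was 0.04. In CPM they were 0.13 and 0.08.

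**Figure D5:**
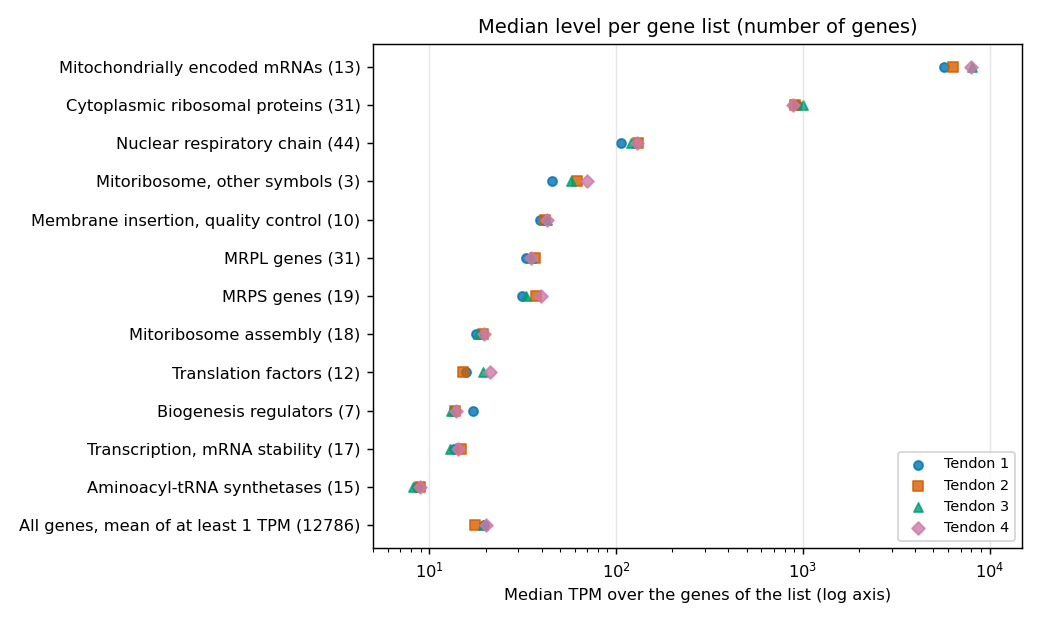
Median TPM (log axis) over the genes of each list in tendons 1 to 4 (points), with the number of genes in brackets. MRPL and MRPS genes lie between 31.4 and 39.7 TPM, below nuclear respiratory chain genes and above translation factors in every tendon.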

How the data were processed

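RNA from 4 intact rabbit tendons was measured by sequencing of polyadenylated RNA. The deposited values are estimated counts per transcript, 1 column per tendon, not scaled for depth or length. The submitters' processing notes name kallisto 0.42.4, bcl2fastq, FastQC and the build OryCun2.0 but not what each was used for. Filters and strand are not given in the sources used here. Transcript lengths in bases are those deposited by the authors beside the counts.

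TPM were computed from counts and annotated lengths, without effective lengths, and summed per gene. Library totals were 19759696, 30646052, 27304439 and 30038827 counts in tendons 1 to 4, where 3 counts correspond to 0.0979 to 0.152 CPM; member counts were at least 91 per gene and tendon. No pair of tendons looked like 1 library: chi-square per degree of freedom was at least 89.9 over 6 pairs. Counts were rounded and TMM-normalised with edgeR 4.0.16 (R 4.3.3). Dispersion was estimated without covariates, over genes that reached 1 CPM in 2 or more tendons. Ratios within a tendon were tested with the exact two-sided sign-flip permutation test and Benjamini-Hochberg adjustment over 6 ratios. The dispersion estimate and the counts of lowest and highest tendons were tested on simulated data. Python 3.11.15, numpy 2.4.6, pandas 2.3.3, scipy 1.17.1 and DESeq2 1.42.0 (size factors as an alternative) were used.

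Members, lists and tests were chosen with earlier results of these data known. Named genes were the 5 highest and 3 lowest per subunit by mean TPM, the 5 with the largest and the 5 with the smallest range, 8 fixed by name, of which MRPL12 and MRPS18C were not analysed here, the 3 highest of each other translation list, and NRF1, GABPA and PPARGC1A. Other members named for their place in the ribosome, and those behind small counts, were chosen after their values were seen. Promoter motifs and sequences were not analysed here.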

Additional observations from a re-analysis of the deposited data

Results flagged for a closer look

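Among 77 quantities checked for 1 outlying tendon, including the 50 member levels, 2 lay beyond the 95% limit of Dixon's test. About 3.85 would do so by chance. MRPL44 was low in tendon 2, at 10.1 TPM against 13.4 to 13.98 TPM in the others (ratio of the gap to the range 0.857). The mean difference between MRPL and MRPS genes on the scale of log2(TPM + 1) was high in tendon 1, at 0.45 against 0.29 to 0.30 in the others (ratio 0.913). The design holds 1 group, so no difference between groups was tested.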

How the results depend on the processing

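The median ratio of the subunits, -0.01 on the log2 scale, turned to 0.0357 in CPM and ran from -0.0409 to 0.0464 when 1 tendon was left out; its sign is therefore not determined. The mean-based difference stayed positive, from 0.05 (members under 2000 bases) to 0.37 (effective length), and from 0.29 to 0.35 when 1 tendon was left out. The other 4 ratios kept their sign under every alternative run. With each tendon left out they ran from 0.98 to 1.04 (sums), 0.02 to 0.07 (conserved over mitochondria-specific), -4.78 to -4.69 (to cytoplasmic ribosomal proteins) and -1.83 to -1.78 (to the respiratory chain). The share of members was 0.128% of CPM in place of 0.1898% of TPM, and 0.187 to 0.195% with 1 tendon left out. The difference in median range between the subunits, -0.12 on the log2 scale, ran from -0.198 to 0.0308 when 1 tendon was left out; it turned without tendon 1. The median coefficient of variation of members ran from 0.157 to 0.204, the highest without tendon 3. The count of members with a 2-fold range remained at 0 under every alternative run, against 5.42% (without tendon 1) to 18.97% (mean of at least 1 CPM) of all genes. That of members lowest in tendon 1 ran from 29 of 47 (TPM) to 40 of 47 (without tendon 3), against 22.0 and 37.1% of all genes. With a tendon left out, fewer tendons compete for the lowest place, so these counts are not on the same footing. An effective length, 150 bases shorter, moved the mean TPM of 27 of 50 members by more than 1 SD, between 0.809-fold (MRPS10) and 1.25-fold (MRPS12); fragment lengths are not given in the sources used here. Leaving out MRPL17, members over 2000 bases, cytoplasmic paralogs, or assembly factors with NDUFA4L2 was chosen after seeing the data. No paired analysis was possible because the tendons form 1 group, so no replicate number is shared between groups; the 6 ratios compare gene sets within each tendon. With 4 tendons, no exact test could pass 0.05.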
